A study of Mus musculus with 4 samples.

Results

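Interleukin-1 family ligands and their receptors were followed in microglia, the resident macrophages of the brain. The set was given by name and held 10 genes: Il1a, Il1b, Il1rn, Il18, Il33, Il1f9 (also Il36g), Il1r1, Il1r2, Il1rap and Il1rl1. A probe set annotated with exactly 1 gene symbol was found for 9 of them, 1 probe set each, among 17653 named genes. Il1rl1, the receptor for IL-33, had no such probe set in the annotation used and was not analysed here. Male C57BL/6J mice gave the microglia, isolated from the whole brain. The 4 groups were OVA (the allergy group) at postnatal day 70 (P70), PBS (the control group) at P70, OVA at P30 and PBS at P30, all taken 1 day after an intranasal challenge. Each group was a pool of 4 samples on 1 array, so animals cannot be told from one another and no group had a spread to test against. Every difference below is therefore a difference between 2 arrays, given with no test, and their number limits the precision. No allele or transgene is named in the labels.

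Levels are log2 of the deposited probe set intensity, and a difference of 1 is a doubling. The level of one gene's probe set says nothing about its amount against another gene, so each gene is compared with itself across arrays. Genes whose mean over the 4 arrays reached 7.18, the median of all named genes, are called expressed, 8827 genes in all. Of the 9 measured members, 5 passed: Il1a, Il1b, Il1rn, Il18 and Il1f9. The members Il1r2 (mean 7.13), Il1rap (6.32), Il1r1 (6.28) and Il33 (5.56) did not, and their values are given as measured with their sizes uncertain. A gene is counted as higher or lower from a difference of 1.5-fold (0.585 on the log2 scale). The brightest member value, 13.08, lay far below the upper limit of the arrays, of which the lowest was 19.74.

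Interleukin-1 alpha and beta, encoded by Il1a and Il1b, signal through one receptor, Il1r1, which needs the accessory chain Il1rap. The antagonist Il1rn occupies Il1r1 without signalling, and the decoy receptor Il1r2 binds the ligands without passing the signal on. Interleukin-1 alpha is active as made and can act as an alarm signal from damaged cells, whereas interleukin-1 beta and interleukin-18 are made as precursors that caspase-1 cleaves in inflammasomes. Interleukin-33, encoded by Il33, is a nuclear alarm cytokine that drives type 2 responses through Il1rl1. Il1f9 encodes interleukin-36 gamma, which acts through Il1rl2 with Il1rap. In brain, microglia are a known source of interleukin-1.

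The genes lie in runs. By RefSeq's gene order (GRCm38.p6, taken for names and neighbours alone), Il1a and Il1b are neighbouring protein-coding genes on chromosome 2, and Il1f9 and Il1rn enclose Il1f6, Il1f5 and Il1f10 elsewhere on it. Il1r2, Il1r1, Il1rl2, Il1rl1, Il18r1 and Il18rap follow one another on chromosome 1. The start regions of 4 members are shown because they carry the contrast of the results below: Il1a was higher in OVA at both ages, its neighbour Il1b was not by 1.5-fold, and Il1f9 and Il1rn had their highest value in PBS at P70. Each is a RefSeq window of GRCm38.p6, 250 bases before to 50 after an annotated start, written 5′ to 3′ on the gene's strand, with AP-1 motifs (TGANTCA, searched on both strands) and TATA boxes (TATAAA, searched on the gene's strand) in capitals.
Il1a, chr2:129309923-129310222, minus strand: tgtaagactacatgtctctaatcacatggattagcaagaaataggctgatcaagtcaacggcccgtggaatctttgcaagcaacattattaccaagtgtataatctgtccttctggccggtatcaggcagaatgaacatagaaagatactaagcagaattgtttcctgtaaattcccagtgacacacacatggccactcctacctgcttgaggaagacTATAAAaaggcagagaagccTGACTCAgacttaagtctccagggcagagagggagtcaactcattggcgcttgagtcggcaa
Il1b, chr2:129371090-129371389, minus strand: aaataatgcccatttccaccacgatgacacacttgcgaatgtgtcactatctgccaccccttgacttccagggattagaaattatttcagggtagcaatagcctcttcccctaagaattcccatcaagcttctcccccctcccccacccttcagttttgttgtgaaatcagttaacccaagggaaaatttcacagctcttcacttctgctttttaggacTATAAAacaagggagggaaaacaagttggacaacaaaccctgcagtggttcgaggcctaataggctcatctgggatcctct
Il1rn, chr2:24336610-24336909, plus strand: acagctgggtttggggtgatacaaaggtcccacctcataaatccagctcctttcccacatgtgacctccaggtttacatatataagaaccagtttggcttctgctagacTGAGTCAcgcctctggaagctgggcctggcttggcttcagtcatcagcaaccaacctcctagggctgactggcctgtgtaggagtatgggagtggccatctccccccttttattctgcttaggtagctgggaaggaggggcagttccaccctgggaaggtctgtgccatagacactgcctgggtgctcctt
Il1f9, chr2:24186226-24186525, plus strand: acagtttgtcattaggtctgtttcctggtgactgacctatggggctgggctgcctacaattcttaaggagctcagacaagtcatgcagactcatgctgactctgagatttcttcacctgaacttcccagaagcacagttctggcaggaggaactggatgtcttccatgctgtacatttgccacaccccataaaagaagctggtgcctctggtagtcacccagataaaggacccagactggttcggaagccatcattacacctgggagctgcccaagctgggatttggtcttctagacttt
The Il1a window held a TATA box beginning 32 bases and an AP-1 motif beginning 12 bases before the start. The Il1b window held a TATA box beginning 31 bases before the start and no AP-1 motif. The Il1rn window held an AP-1 motif beginning 141 bases before the start, and neither motif was in the window of Il1f9. Among all 32851 windows of 300 bases, 7.81% held an AP-1 motif and 8.32% a TATA box. The kappa-B consensus, on both strands, was in 8.46% of all windows and in none of these 4. C/EBP (TTGCNNAA, both strands) was in 10.8% of all windows and in none of these 4. The PU.1 core GAGGAA, on both strands, was in 28.3% of all windows, in that of Il1a (beginning 41 bases before the start) and in that of Il1f9 (104 bases). None of these matches overlapped another. All 10 members had a window. Il1rn has 3, of which the first is shown, and its windows 2 and 3 held none of these motifs. A match is a run of letters and not a binding site.

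The comparison of OVA with PBS asked how the allergy group departed from its control at each age. Il1a was the one expressed member that was higher in OVA, by 1.56-fold at P70 and 1.69-fold at P30. Il1f9 was the one that was lower, by 2.0-fold at P70 and 1.60-fold at P30. The agonists Il1b and Il18 were at most 1.10-fold above PBS at either age, and the antagonist Il1rn was 1.20-fold lower at both, short of the threshold. Over the whole set of expressed genes, 4.04% were higher and 1.21% lower in OVA by that threshold at P70, and 0.668% higher and 0.906% lower at P30.

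Il1a had a level of 13.08 in OVA against 12.43 in PBS at P70. At P30 it had 12.48 in OVA against 11.72 in PBS. In linear intensity these were 8642 in OVA against 5528 in PBS at P70, and 5726 in OVA against 3383 in PBS at P30. OVA stood above PBS at each age, and OVA at P30 (12.48) reached the value of PBS at P70 (12.43). The differences were 0.64 at P70 and 0.76 at P30. As many as 3.01% of expressed genes had a positive difference of that size or more at P70, and 0.306% at P30. Il1a was 1 of 12 expressed genes, 0.136% of all, that were at least 1.5-fold higher in OVA at both ages. The others included the chemokine genes Ccl3 (0.99 at P70 and 2.03 at P30), Ccl4 (0.75 and 0.71) and Ccl12 (1.21 and 0.74), named after their values were seen. Besides these there were Ttr (4.12 and 1.87), H1f2 (0.86 and 2.05), Hspb3 (1.07 and 0.61) and AI504432 (1.01 and 0.64). The rest were Lipo3 (0.91 and 0.60), Mid1 (0.72 and 0.62), Erdr1 (0.72 and 1.01) and Ftl1 (0.63 and 0.61). After centring each array on its median, the P70 difference of Il1a was 0.54, and after centring along the level (lowess) it was 0.49, both short of 1.5-fold, while the P30 difference stayed past it.

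Il1f9 had a level of 8.65 in OVA against 9.65 in PBS at P70. At P30 it had 6.58 in OVA against 7.27 in PBS. The P70 arrays were both above the P30 arrays, and OVA was the lower at each age. The differences were -1.0 at P70 and -0.68 at P30, and 0.204% and 0.532% of expressed genes had a negative difference of that size or more. The P30 values lay below and just above the level of 7.18, so the size of that difference is uncertain, and with 50 added to every intensity it was -0.48. Il1f9 was 1 of 7 expressed genes, 0.0793% of all, that were at least 1.5-fold lower in OVA at both ages. Of the other 6, Naip6 differed by -1.30 at P70 and -2.04 at P30, and Taar7d by -0.80 and -0.65. Cst10 differed by -0.62 and -0.63, and Hbb-bh0 by -0.61 and -0.73. The remaining genes were Mmp8, a collagenase of neutrophils (-1.46 at P70 and -1.31 at P30), and Retnlg, another gene of neutrophils (-0.85 and -1.95).

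Il1b had a level of 8.82 in OVA against 8.68 in PBS at P70, and 7.74 in OVA against 7.61 in PBS at P30. Its OVA minus PBS differences were 0.14 at P70 and 0.13 at P30, the same side of PBS at both ages and far from 1.5-fold. As many as 41.8% of expressed genes lay at least that far above PBS at P70 and 19.2% at P30. Il18 had 10.69 in OVA against 10.61 in PBS at P70, and 9.56 in OVA against 9.51 in PBS at P30. Its differences of 0.08 and 0.05 were smaller still, and the first turned to -0.02 after median centring and -0.09 after lowess centring. Il1rn had 7.85 in OVA against 8.12 in PBS at P70, and 6.84 in OVA against 7.10 in PBS at P30. The antagonist was thus lower in OVA by 0.27 and 0.26, and 7.68% and 8.86% of expressed genes lay at least that far below PBS. Both P30 values of Il1rn were under 7.18.

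Il33 was dim on every array, with 5.45 in OVA against 5.37 in PBS at P70 and 5.77 in OVA against 5.64 in PBS at P30. The 4 values spanned 0.40, with both P30 arrays above both P70 arrays.

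The receptors were dim. Il1r1, the signalling receptor, had 6.46 in OVA against 5.83 in PBS at P70, and 6.36 in OVA against 6.47 in PBS at P30. The single low value was PBS at P70, and the other 3 arrays lay between 6.36 and 6.47. The OVA minus PBS difference was 0.64 at P70 and -0.11 at P30, from values that were all below the level called expressed. The P70 difference fell short of 1.5-fold after median centring (0.53) and with 50 added to every intensity (0.37). Il1rap, the shared accessory chain, had 6.44 in OVA against 6.32 in PBS at P70, and 6.30 in OVA against 6.22 in PBS at P30, a range of 0.22 over the 4 arrays. Il1r2, the decoy receptor, had 7.47 in OVA against 7.71 in PBS at P70, and 6.58 in OVA against 6.78 in PBS at P30. Both P70 values stood above both P30 values, and the OVA minus PBS differences were -0.24 and -0.20.

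**Figure D1:**
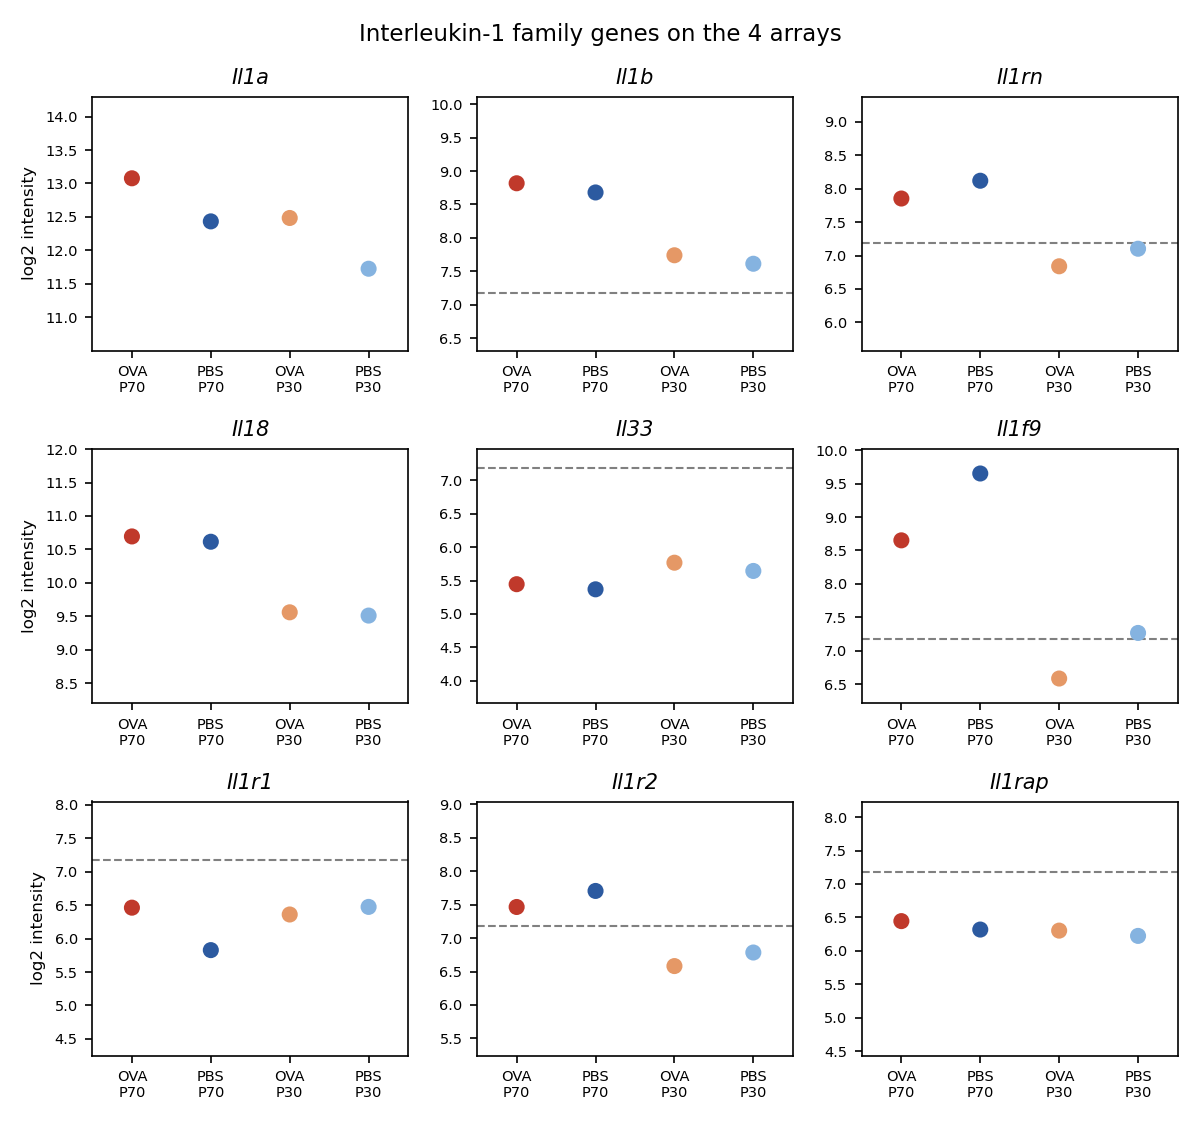
Log2 intensity (vertical axis, same span of 3.8 units in each panel) of the 9 measured members on the 4 arrays, 1 point per array; the dashed line is the level of 7.18 above which a gene's mean counts as expressed. Il1a is higher in OVA at each age, Il1f9 is lower in OVA at each age, and Il33, Il1r1 and Il1rap stay under the line on all arrays.

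**Figure D2:**
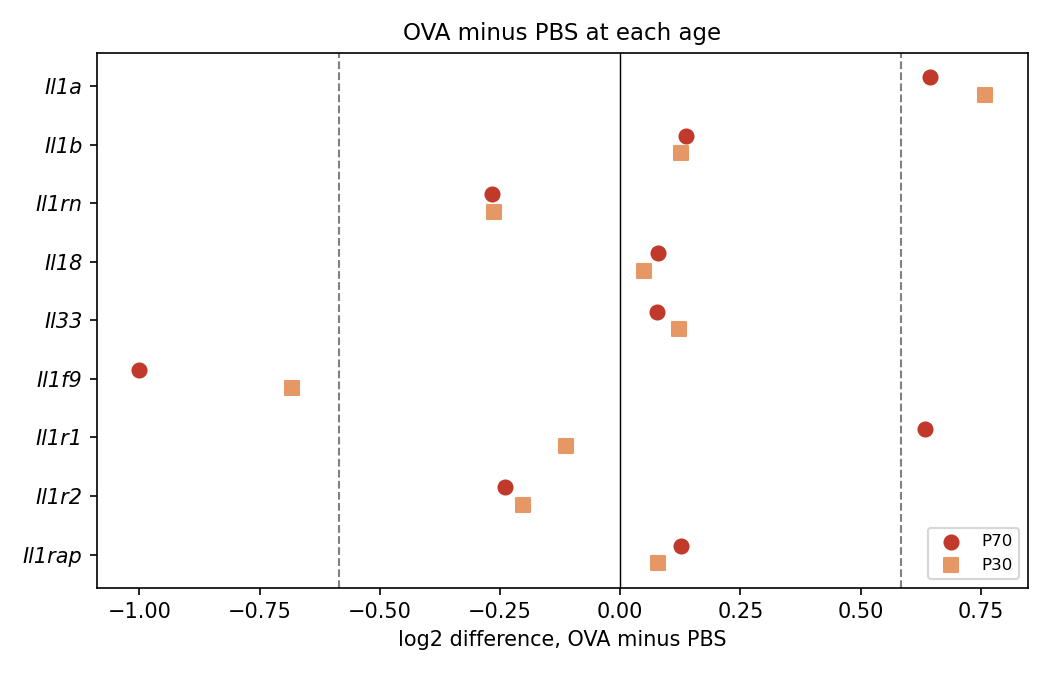
Log2 difference, OVA minus PBS (horizontal axis), of each member at P70 (circles) and P30 (squares); dashed lines mark 1.5-fold. Il1a lies past the upper line and Il1f9 past the lower line at both ages, and Il1r1, dim on all arrays, passes the upper line at P70 as deposited but not after median centring (0.53).

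Setting the 2 ages side by side, the OVA minus PBS differences of the 5 expressed members kept their sign as deposited. The share of all expressed genes that did so was not computed, so nothing is read from this count. For Il18 the P70 difference turned to -0.02 after median centring and -0.09 after lowess centring, against 0.07 and 0.10 at P30. The difference at P70 less that at P30 was -0.11 for Il1a, 0.01 for Il1b, -0.0036 for Il1rn, 0.03 for Il18 and -0.32 for Il1f9. None of the 5 reached 1.5-fold, where 10.1% of expressed genes did, and their median was -0.0036 against 0.10 over all expressed genes. The median OVA minus PBS difference of the 5 was 0.08 at P70, against 0.09 over all expressed genes, and 0.05 at P30, against -0.01.

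The 9 members showed 5 different orders of the 4 arrays. Il1f9, Il1rn and Il1r2 shared the order PBS at P70, OVA at P70, PBS at P30, OVA at P30 from high to low, which 10.6% of expressed genes had. Of the 13 neutrophil markers, 6 had this order: S100a8, S100a9, Retnlg, Ngp, Mmp8 and Cxcr2. Il1b, Il18 and Il1rap shared the order OVA at P70, PBS at P70, OVA at P30, PBS at P30, found in 19.7% of expressed genes and in 1 neutrophil marker, Ly6g. Il1a, Il33 and Il1r1 each had an order that no other member had. That of Il1a was OVA at P70, OVA at P30, PBS at P70, PBS at P30 (2.27% of expressed genes), the one order among the members in which the 2 OVA arrays were the 2 highest. Those of Il33 and Il1r1, both dim, were found in 3.32% and 1.19% of expressed genes. With 1 array per group, neighbours in these orders cannot be said to differ.

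Neutrophils are a known source of the antagonist Il1rn and the decoy receptor Il1r2, and the levels of their markers are given beside these members and Il1f9. All 13 markers were measured and 11 were expressed, with Mpo and Elane, genes of immature neutrophils, under the level on average. The summed linear intensity of the list was 763453 in OVA against 894960 in PBS at P70, and 30323 in OVA against 78488 in PBS at P30. Such a sum is carried by the brightest probe sets and compares no gene with another. At P70, 0 of the 11 were at least 1.5-fold higher and 2 lower in OVA, with a median difference of -0.14, and 5 of the 11 had a positive difference. At P30, 0 were higher and 7 lower, with a median of -1.31. Over all expressed genes, 4.04% were higher and 1.21% lower at P70, with a median of 0.09. At P30 these shares were 0.668% and 0.906%, with a median of -0.01. S100a8, an alarm protein of neutrophil granulocytes, had 17.77 in OVA against 18.28 in PBS at P70 and 11.85 in OVA against 13.38 in PBS at P30. Ltf, which encodes the granule protein lactoferrin, was on opposite sides of PBS, with 12.44 in OVA against 11.96 in PBS at P70 and 8.77 in OVA against 9.66 in PBS at P30. Camp (0.14), Csf3r (0.18), Ly6g (0.34) and Lcn2 (0.04) also had positive OVA minus PBS differences at P70. The part of these markers in the values of Il1f9, Il1rn and Il1r2 was not tested. In such pooled material, fewer cells of a type and less RNA per cell cannot be told apart.

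**Figure D3:**
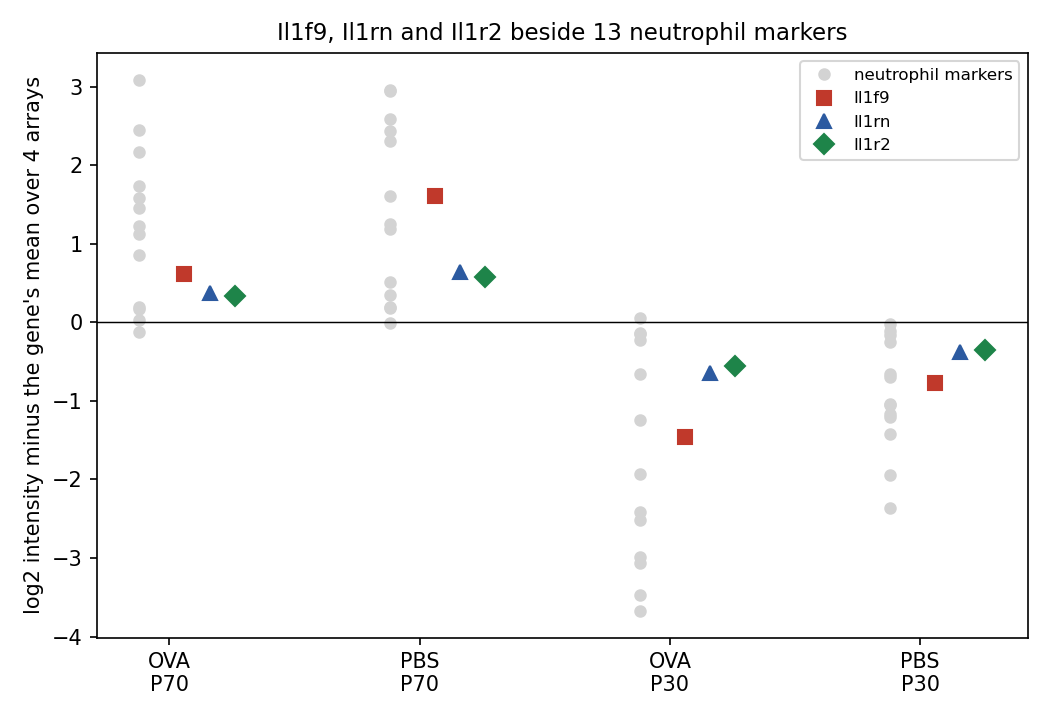
Log2 intensity minus the gene's own mean over the 4 arrays (vertical axis) for 13 neutrophil markers (grey) and for Il1f9, Il1rn and Il1r2 (coloured), 1 point per gene and array. The 3 members lie above their mean at P70 and below it at P30, and lower in OVA than in PBS at each age.

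The microglial markers were measured for 9 of 10 genes, all expressed on every array. Their summed linear intensity was 654865 in OVA against 627303 in PBS at P70, and 491970 in OVA against 533242 in PBS at P30. None of the 9 differed by 1.5-fold between OVA and PBS at either age, where 5.26% of expressed genes did at P70 and 1.57% at P30. Beside Il1a, markers of border-associated macrophages summed to 7019 in OVA against 2569 in PBS at P70 and to 1792 in OVA against 2165 in PBS at P30, so they were on the other side of PBS at P30. Of the 7 expressed of these 8 markers, 4 were at least 1.5-fold higher in OVA at P70 and none at P30, and Lyve1 was below the level called expressed. Monocyte markers summed to 24272 in OVA against 21602 in PBS at P70 and to 2045 in OVA against 1915 in PBS at P30, with 2 of 6 at least 1.5-fold higher in OVA at P70 and none at P30. Over all expressed genes, 4.04% were at least 1.5-fold higher in OVA at P70 and 0.668% at P30. None of 7 or of 6 at P30 is thus near the background. The choroid plexus gene Ttr was higher in OVA at both ages, by 4.12 at P70 and 1.87 at P30, while Folr1, Kl and Clic6 of the same list stayed below the level called expressed. Of 6 astrocyte markers, Slc1a3 and Ndrg2 were expressed and both at least 1.5-fold higher in OVA at P70 (0.70 and 0.89). The part of these cells in the Il1a values was not tested. Beside the dim members Il33 and Il1r1, markers of cells known for them were counted below the level called expressed. These were 4 of 5 measured oligodendrocyte, 4 of 6 astrocyte and 5 of 7 endothelial markers. Among mast cell and basophil markers 8 of 9 were below it, and among lymphocyte markers 2 of the 5 measured. That level is a median, reached by 8827 of 17653 named genes, so such counts do not show whether these cells were present.

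The comparison of P70 with P30 set the older mice against the younger within each treatment, on the same 4 arrays as above. The 5 members that passed the level called expressed were all at least 1.5-fold higher at P70 in both treatments, where 38.6% of expressed genes were in OVA, 29% in PBS and 26.1% in both. None was lower, where 4.37% of expressed genes were in OVA and 3% in PBS. The whole distribution was shifted as well, with a median of 0.38 over all expressed genes in OVA and 0.25 in PBS. Il1rn passed that level through its P70 arrays alone, and Il1f9 had its OVA array at P30 below it, so the count is partly set by the filter and nothing is read from it. After centring each array on its median, 4 of 5 stayed at least 1.5-fold higher in each treatment and Il1a did not (0.18 in OVA and 0.41 in PBS).

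Il1f9 was far higher at P70, by 2.07 in OVA (8.65 at P70 against 6.58 at P30) and by 2.39 in PBS (9.65 at P70 against 7.27 at P30), which is 4.19-fold and 5.22-fold. These folds are uncertain, since the P30 values were below and just above the level called expressed, and with 50 added to every intensity the differences were 1.63 in OVA and 2.07 in PBS. As few as 2.64% and 0.634% of expressed genes had a positive age difference of that size or more. Il1b was higher at P70 by 1.08 in OVA and 1.07 in PBS, Il18 by 1.14 and 1.10, and Il1rn by 1.01 in OVA and 1.02 in PBS, each about a doubling. These 3 were nearly equal in the 2 treatments, but between 11.1% and 19.2% of expressed genes differed by as much. With the arrays centred on their medians, their differences in OVA were 0.66, 0.72 and 0.60 and in PBS 0.77, 0.81 and 0.72. Il1a had the smallest age differences of the 5, 0.59 in OVA and 0.71 in PBS, the first just past the threshold. After lowess centring Il18 fell short of 1.5-fold, at 0.24 in OVA and 0.44 in PBS. The direction for Il1a depended on the scaling: after lowess centring it was -0.54 in OVA and -0.21 in PBS.

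Among the dim members, Il1r2 was higher at P70 by 0.88 in OVA and 0.92 in PBS. Il33 was lower at P70 by 0.32 in OVA and 0.27 in PBS, Il1rap differed by 0.14 and 0.09, and Il1r1 by 0.10 in OVA and -0.65 in PBS. The sign of Il1rap in both treatments and that of Il1r1 in OVA turned when the arrays were centred on their medians, and that of Il33 in OVA turned after quantile normalization. Neutrophil markers were higher at P70 by a median of 3.67 in OVA and 2.35 in PBS, with 9 of 11 at least 1.5-fold higher in each treatment and none lower. Over all expressed genes the median was 0.38 in OVA and 0.25 in PBS, with 38.6% and 29% at least 1.5-fold higher. Monocyte markers were higher by a median of 2.32 in OVA and 1.91 in PBS, in 6 of 6 and 5 of 6. The part of these cells in the age differences of the members was not tested.

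**Figure D4:**
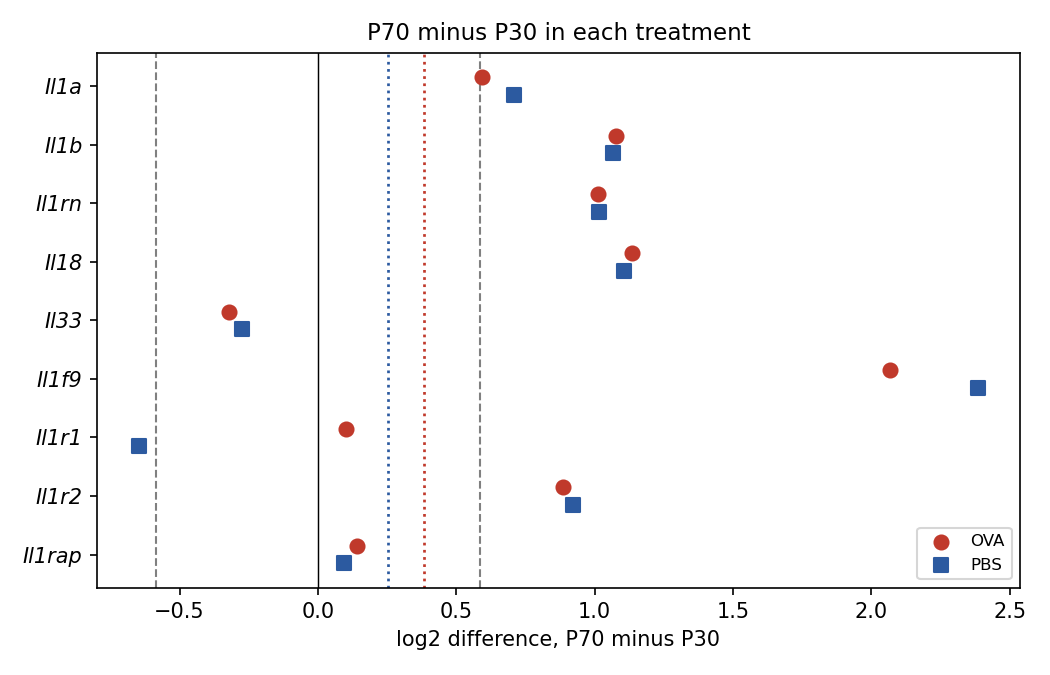
Log2 difference, P70 minus P30 (horizontal axis), of each member in OVA (circles) and PBS (squares); dashed lines mark 1.5-fold and dotted lines the median of all expressed genes in OVA (0.38) and PBS (0.25). Il1f9 lies farthest to the right in both treatments, and Il1b, Il1rn and Il18 lie near 1 in both.

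Other genes of the pathway were taken from lists, chosen with earlier results of these data known. Among 11 further family genes, Il1rl2 and Il18bp were expressed. Il1rl2, the receptor on which interleukin-36 acts, had 10.02 in OVA against 9.57 in PBS at P70 and 9.15 in OVA against 9.40 in PBS at P30, on opposite sides of PBS. Il18bp, a soluble protein that binds interleukin-18, differed by -0.02 at P70 and 0.11 at P30. Neither was past 1.5-fold at either age. The remaining ligands Il1f5, Il1f6, Il1f8 and Il1f10 and the receptor genes Il18r1, Il18rap, Sigirr, Il1rapl1 and Il1rapl2 were below the level called expressed.

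Of 18 genes of the signalling route below the receptor, 15 were measured and all 15 expressed. At P70, 1 was at least 1.5-fold higher in OVA and none lower: Ecsit, an adaptor of the route, at 8.11 in OVA against 7.52 in PBS, at the threshold itself (0.59). Over all expressed genes the share higher was 4.04%, so 1 of 15 is near the background. Tollip, which restrains the receptor complex, differed by 0.35 and the ubiquitin ligase Traf6 by 0.34, short of it. At P30 none was past 1.5-fold in either direction, and Ecsit (0.27), the adaptor Myd88 (-0.25) and the kinase Irak2 (-0.23) lay farthest out. The medians were 0.16 at P70 and -0.03 at P30.

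Of 19 genes of precursor processing and release, 18 were measured and 10 expressed. Nlrp3, the sensor of an inflammasome that activates caspase-1, was the 1 gene at least 1.5-fold higher in OVA at P70, with 10.14 in OVA against 9.30 in PBS, and none was lower. Over all expressed genes 4.04% were higher at P70, so 1 of 10 is not read as a result about the list. At P30 Nlrp3 had 9.94 in OVA against 9.41 in PBS, a difference of 0.53 that fell short of 1.5-fold. No gene of the list was past 1.5-fold at P30, where 0.668% of all expressed genes were higher and 0.906% lower. Pycard, the adaptor between sensor and caspase, had 12.88 in OVA against 12.94 in PBS at P70 and 10.46 in OVA against 10.94 in PBS at P30. Casp1, which cleaves the precursors of interleukin-1 beta and interleukin-18, differed by 0.25 at P70 and -0.04 at P30. The medians were 0.20 at P70 and -0.02 at P30. In the age comparison, 7 of the 10 were at least 1.5-fold higher at P70 in OVA and 5 of 10 in PBS. Over all expressed genes the shares were 38.6% and 29%. Of the 4414 genes with a mean of at least 8.45, as many as 2673 were higher in OVA and 2079 in PBS. The counts are thus not read as a result about the list. Casp1 was higher by 2.49 in OVA and 2.19 in PBS. Pycard was higher by 2.42 and 2.0, and Casp4, a caspase of the same family, by 2.07 and 1.84.

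Of 16 genes that interleukin-1 induces in many cells, all were measured and 10 expressed. At P30, 2 of the 10 were at least 1.5-fold higher in OVA and none lower, where 0.668% of all expressed genes were higher. One was Nfkbiz, a nuclear regulator of NF-kB, at 8.03 in OVA against 7.43 in PBS. The other was Nfkbia, the inhibitor of NF-kB, at 10.004 in OVA against 9.41 in PBS. Both lay close to the threshold, with differences of 0.60 for Nfkbiz and 0.59 for Nfkbia. Tnfaip3, which ends NF-kB signalling, differed by 0.42 at P30 and 0.28 at P70. At P70, 1 of the 10 was higher and none lower: Ccl2, a chemokine for monocytes, at 9.43 in OVA against 8.74 in PBS. Over all expressed genes the share higher at P70 was 4.04%, so 1 of 10 is not read as a result about the list. At P30 Ccl2 had 9.22 in OVA against 8.79 in PBS. The cytokine gene Il6 had 8.73 in OVA against 9.28 in PBS at P70 and 6.93 in OVA against 6.79 in PBS at P30. The list had a median of 0.15 at P70 and 0.17 at P30, against 0.09 and -0.01 over all expressed genes. In the age comparison, 2 of the 10 were at least 1.5-fold higher at P70 in OVA and 3 in PBS, and none was lower. Over all expressed genes the shares higher were 38.6% and 29%. The list's medians were 0.12 in OVA and 0.15 in PBS, against 0.38 and 0.25. Il6 was higher at P70 by 1.79 in OVA and 2.49 in PBS, and Nfkbia by 0.75 in PBS. Lcn2, which is also a neutrophil marker, was higher by 2.46 in OVA and 2.35 in PBS. The list's members Ptgs2, Cxcl1, Cxcl2, Saa3, Zc3h12a and Bcl3 were below the level called expressed.

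**Figure D5:**
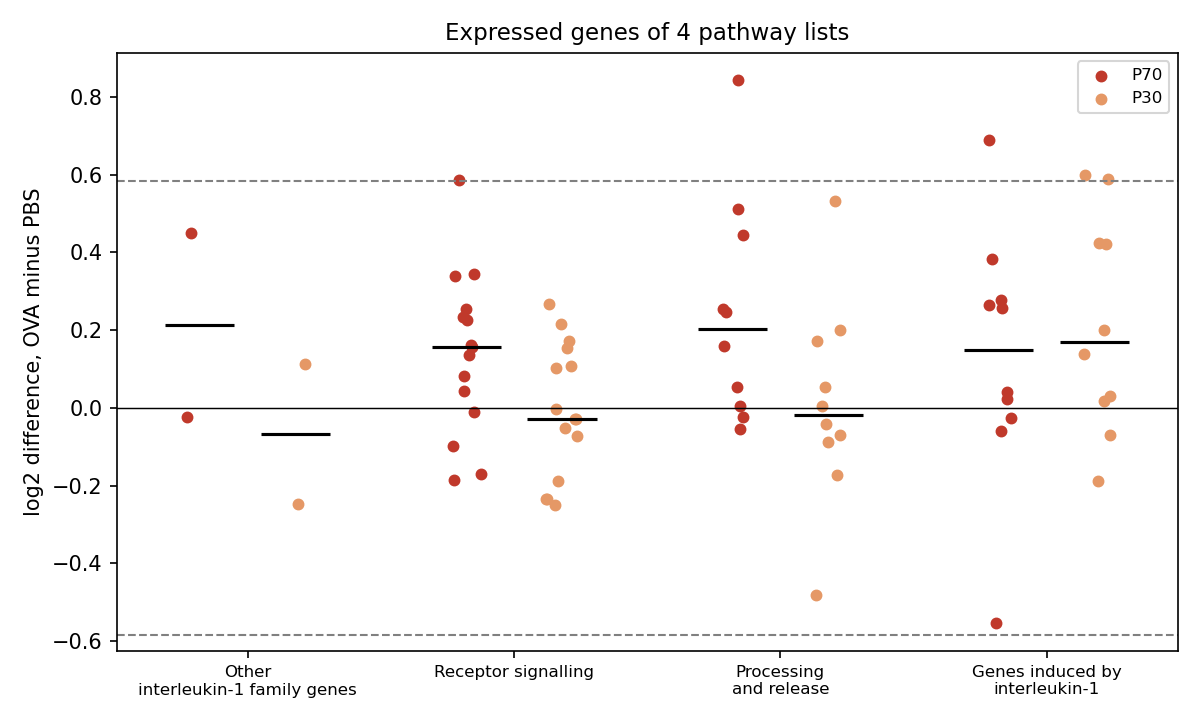
Log2 difference, OVA minus PBS (vertical axis), of the expressed genes of 4 pathway lists at P70 and P30, 1 point per gene, with the list's median as a bar and 1.5-fold as dashed lines. Nlrp3 and Ccl2 lie past the upper line at P70, with Ecsit on it (0.59), and at P30 Nfkbiz lies just past that line (0.60), with Nfkbia on it (0.59).

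The genes most like each expressed member over the 4 arrays were found by the Euclidean distance between the 4 levels, each gene centred on its own mean. With 4 values such neighbours are many and mean little alone. Nearest to Il1a were Swi5 (0.18) and Mospd1 (0.19). Nearest to Il1b were Tatdn1 (0.03) and Mtpn (0.04), nearest to Il18 Acbd6 (0.02) and Nmd3 (0.03), and nearest to Il1rn Scfd1 (0.03) and Dusp11 (0.03). Il1f9 had no near neighbour, with Med10 at 0.51 and Anxa1 at 0.57. The distance was not scaled for a gene's range, which among the members was largest for Il1f9 (3.07). Between members, Il1b and Il18 were the closest pair (0.08), and Il1a and Il1b, neighbours on the chromosome, were 0.71 apart. Among all expressed genes, Il18 held only place 21 from Il1b, and Il1b place 36 from Il18.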

How the data were processed

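Microglia pools of 4 samples were measured on 4 one-colour arrays, 1 each for OVA and PBS at P70 and P30. The deposited values are intensities, 1 per probe set and array; per the submitters' processing notes RMA and Affymetrix Expression Console 1.4.1 were used, and per the labels' protocols RNA was amplified with the GeneChip WT Pico kit. RMA writes log2 values, but the deposited intensities ran from 8.35 to 999952, so they were taken as linear. How arrays were scaled to each other, and the genome build, are not given in the sources used here.

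Of 65956 probe sets, 30604 carried 1 gene symbol, 2146 several and 33206 none here; 827 symbols were updated through Entrez IDs with RefSeq GRCm38.p6. Predicted genes, small RNAs, segments of antigen receptors, and olfactory and vomeronasal receptors were dropped, giving 17653 genes, the brightest probe set each. Differences of log2 intensity were taken with Python 3.11.15, numpy 2.4.6 and pandas 2.3.3. With 1 array per group no test was made. The calling and centring steps were tested on simulated data. The members and the 4 pathway and 10 marker lists were chosen with earlier results of these data known. All members were named; of other lists, up to 4 genes with the largest OVA differences and others that bear on a member. Those named beyond that rule were chosen after their values were seen. Alternatives covered scaling (median, quantile, lowess), probe set averaging, the floor, an offset of 50, and folds of 2 and 1.25.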

Additional observations from a re-analysis of the deposited data

Results flagged for a closer look

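Il1r1 was on opposite sides of PBS at the 2 ages: OVA minus PBS was 0.64 at P70 (6.46 in OVA against 5.83 in PBS) and -0.11 at P30 (6.36 in OVA against 6.47 in PBS), a difference of 0.75 between them. That difference was not tested. All 4 values lay below the level called expressed, and with 50 added to every intensity the difference was 0.44.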

How the results depend on the processing

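No paired analysis was possible because each group had 1 array, and for the same reason no array could be left out. The number of expressed members past 1.5-fold was 2 in each OVA comparison (Il1a and Il1f9), 5 in each age comparison and 0 for the difference of the OVA effects. At P70 the OVA count was 1 after median centring, after lowess centring, with the stricter floor (8.45, which leaves Il1a and Il18) and at 2-fold. At P30 it was 1 with the stricter floor and with the offset of 50, and 0 at 2-fold. The age counts were 3 in OVA and 3 in PBS after lowess centring, and 2 and 2 with the stricter floor. With no floor 1 member, Il1r1, passed for the difference of the OVA effects. The age difference of Il1a turned to -0.54 in OVA and -0.21 in PBS after lowess centring; the cause was not tested. Averaging probe sets could not change a member, since each has 1. Over the other 4 settings that recompute values (median, quantile, lowess, offset), 180 member differences were recomputed: 147 kept their direction and side of the threshold, 13 lost 1.5-fold, 1 gained it (Il33 for age in OVA, -0.74 after median centring), 2 reversed and 17 changed sign below the threshold. Il1f9 in OVA at P70 stayed past 1.5-fold in all 4, and Il1a at P30 likewise. Over all expressed genes, 357 were higher and 107 lower in OVA at P70 as deposited, 205 and 181 after median centring, 186 and 184 after lowess centring and 459 and 62 after quantile normalization. For the difference of the OVA effects, 688 were higher and 200 lower as deposited, 393 and 352 after median centring and 359 and 325 after lowess centring. At P30, 139 genes passed as deposited, 91 with the offset and 211 with no floor; at P70 464 passed as deposited and 297 with the stricter floor. At 2-fold the counts were 61 at P70, 35 at P30, 1886 for age in OVA, 1260 for age in PBS and 151 for the difference of the effects; at the lower fold they were 2008, 833, 5522, 4609 and 2749. For age, 3405 were higher and 386 lower in OVA and 2563 and 265 in PBS as deposited; these were 1748 and 1247 in OVA and 1536 and 742 in PBS after median centring, and 1196 and 969 in OVA and 1041 and 768 in PBS after lowess centring. Dim signal limits Il33, Il1r1, Il1r2 and Il1rap, and the P30 values of Il1rn and Il1f9.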
